A study of Mus musculus with 14 samples.

Results

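The 6 genes described here are Pax2, Pax3, Pax5, Pax6, Pax7 and Pax8, which were all the members named of the Pax family and 6 of the 31054 genes in the expression tables. They were found by gene symbol, each had 1 entry, and all 6 were followed in all 14 single-cell libraries. The study asked how a weakened Atoh1, the transcription factor that specifies rhombic lip neurons, alters the pontine nuclei (PN), the relay between cerebral cortex and cerebellum. TdTomato-positive living cells were sorted from the hindbrain at embryonic stages E14.5 and E18.5 and from the PN region at postnatal stage P5, and were sequenced with a droplet method that counts the 3′ ends of RNA molecules with unique molecular identifiers (UMIs). Control (Ctrl) animals carried Atoh1Cre/+ and Rosa lsl-tdTomato/+, so their Cre allele replaced 1 copy of Atoh1. Atoh1S193A/- animals carried Atoh1Cre/S193A and Rosa lsl-tdTomato/+, a hypomorphic copy over the same Cre allele. All were labelled C57BL/6J. The sort kept cells in which a Cre in the Atoh1 locus had switched on the reporter, in both genotypes, although the P5 libraries also held microglia-like (1012), oligodendrocyte lineage-like (1024) and vascular or mesenchymal-like (169) cells. There were 3 Ctrl and 3 Atoh1S193A/- libraries at each embryonic stage, with 1 embryo per library, and same-numbered libraries of a stage were taken as litter-mates. P5 had 2 Ctrl libraries, each from pooled pups. The S193A allele changes a single residue, which counts of 3′ ends do not read, so the genotype labels could not be checked from these values.

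Pax proteins bind DNA through a paired domain, and several members carry a homeodomain as well. Pax6 is a classical marker of rhombic lip derivatives, among them cerebellar granule cell precursors and migrating precerebellar neurons. Pax3 and Pax7 mark dorsal neural tube progenitors. Pax2, Pax5 and Pax8 form one subfamily, which acts first at the midbrain-hindbrain boundary and, for Pax2 and Pax8, later in dorsal inhibitory interneurons.

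On the mouse genome build GRCm38, Pax2 lies at chr19:44756045-44837871 on the plus strand, Pax6 at chr2:105668900-105697364 on the plus strand and Pax8 at chr2:24420560-24475599 on the minus strand. Pax3 lies at chr1:78101267-78197134, Pax5 at chr4:44524757-44710487 and Pax7 at chr4:139737062-139833528, all on the minus strand. The promoter windows of Pax2 and Pax8 are shown because the levels of these 2 genes varied together over cell clusters, as described further on. Each window holds the 250 bases before and the 50 bases after a transcription start (RefSeq, GRCm38.p6), written 5′ to 3′ on the strand of the gene, with the E-box CAGCTG in capitals where it occurs.
Pax2, chr19:44755502-44755801, plus strand: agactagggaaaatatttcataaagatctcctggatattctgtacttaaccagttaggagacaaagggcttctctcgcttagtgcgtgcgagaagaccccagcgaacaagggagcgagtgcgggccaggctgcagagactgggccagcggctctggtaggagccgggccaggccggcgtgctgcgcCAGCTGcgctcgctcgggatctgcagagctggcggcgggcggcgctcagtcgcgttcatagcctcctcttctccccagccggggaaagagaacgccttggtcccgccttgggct
Pax8, chr2:24475550-24475849, minus strand: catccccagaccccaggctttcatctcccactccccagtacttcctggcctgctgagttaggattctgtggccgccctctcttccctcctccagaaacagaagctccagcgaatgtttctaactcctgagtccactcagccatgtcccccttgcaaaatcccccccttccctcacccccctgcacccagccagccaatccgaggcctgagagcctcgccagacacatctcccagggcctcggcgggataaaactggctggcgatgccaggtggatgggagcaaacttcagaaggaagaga
The Pax2 window had a GC content of 61.7% with 23 CpG sites and the Pax8 window 59.3% with 7. Of the 3 windows listed for Pax2, the letters CAGCTG, which read the same on both strands, occurred in this 1 alone. They did not occur in the Pax8 window. They were present in 16.3% of 32851 promoter windows of the same length. The match describes the letters alone.

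After filtering, 80250 cells were kept (3248 to 8726 per library, from totals of 108239001 to 236964126 UMIs), and the median per barcode lay between 8433 and 18507 UMIs. Libraries shared between 0.163% and 0.624% of their barcodes pairwise. Cells were clustered and named without any Pax gene, from marker genes of position and transmitter type, so Pax levels played no part in the names. The classes were PN-like cells (15738), granule-like cells (29590), rostral-like cells (8506, excitatory neurons without posterior Hox genes) and inhibitory-like cells (1648, with Gad1, Gad2 and Slc32a1). Litter 2 of E14.5 stood apart in both genotypes: rostral-like cells made up 33.99% and 35.41% of its kept cells against 10.39% to 23.05% in the other 4 libraries, and granule-like cells 7.05% and 4.80%. Unless stated otherwise, levels are UMIs per 1000000 UMIs (CPM), taken over the summed cells of a class in 1 library, and an SD is over libraries. A count of 3′ ends does not grow with transcript length. Other differences in capture between genes were not tested, so comparisons of level between genes are approximate.

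Each Pax gene had its own pattern over the classes of Ctrl libraries, and at E14.5 the highest means lay in different classes for Pax6, Pax3, Pax5 and the pair Pax2 and Pax8. Pax6 was highest in granule-like cells, at 604.11 ± 48.17 CPM (SD, n = 3), followed by PN-like cells at 462.98 ± 61.81 CPM and dorsal rhombic lip-like cells at 305.08 ± 36.43 CPM. The means of these 3 classes stood further apart than their SDs. Pax6 then dropped to 111.19 ± 46.72 CPM in other caudal cells, 49.38 ± 22.08 CPM in glia-like cells, 30.98 ± 2.75 CPM in inhibitory-like cells and 6.17 ± 2.24 CPM in rostral-like cells. Pax3 was highest in dorsal rhombic lip-like cells (301.57 ± 47.87 CPM) and glia-like cells (278.19 ± 19.06 CPM), 2 values within their spread. It was lower in granule-like cells (131.9 ± 25.4 CPM) and lower again in PN-like cells (24.1 ± 7.01 CPM), and reached 1.5 CPM in rostral-like cells.

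The Pax2, Pax5 and Pax8 subfamily lay elsewhere. Pax5 was highest in rostral-like cells, at 156.16 ± 6.57 CPM (n = 3), then in inhibitory-like cells at 70.42 ± 45.52 CPM and glia-like cells at 24.94 ± 16.02 CPM, a pair that overlapped within the spread. It was 7.93 ± 1.1 CPM in granule-like and 5.44 ± 1.76 CPM in PN-like cells. Pax2 reached 130.71 ± 45.93 CPM in inhibitory-like cells and no more than 2.43 CPM in PN-like, granule-like, rostral-like or other caudal cells. Pax8 reached 43.86 ± 5.5 CPM in inhibitory-like cells and, of the other named classes, at most 2.36 CPM in glia-like cells. Cells left unnamed for their low UMI counts are not part of this. Of these, 3.5% of 57 in Ctrl 1, 0% of 4 in Ctrl 2 and 3.2% of 62 in Ctrl 3 held a Pax8 UMI. Pax7 was the rarest member, with 25.14 ± 2.89 CPM in glia-like cells and 21.51 ± 12.29 CPM in inhibitory-like cells, which overlapped, and 0.08 CPM in PN-like cells. No test was made between classes, which share libraries.

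**Figure D1:**
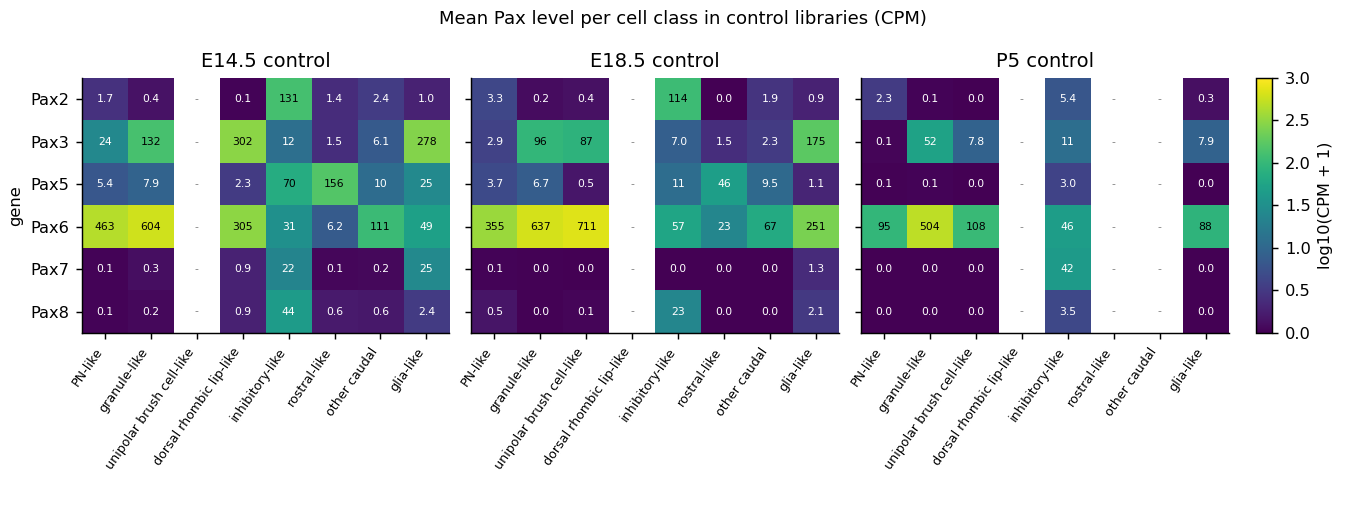
Mean level of each Pax gene (vertical axis) in each cell class (horizontal axis) of Ctrl libraries at E14.5 (n = 3), E18.5 (n = 3, inhibitory-like n = 2) and P5 (n = 2); the number is the mean CPM and the colour its log10(CPM + 1). Pax6 fills the PN-like and granule-like columns at every stage, Pax5 is highest in the rostral-like column of both embryonic stages, and Pax2 and Pax8 are highest in the inhibitory-like column.

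By E18.5 the order of the classes held for Pax6 in the rhombic lip lineages. Pax6 was 711.37 ± 78.16 CPM in unipolar brush cell-like cells, a class not found at E14.5, 637.20 ± 32.41 CPM in granule-like cells and 355.18 ± 34.29 CPM in PN-like cells. The first pair lay within its spread. Pax3 was 174.67 ± 55.74 CPM in glia-like, 96.25 ± 3.61 CPM in granule-like, 86.89 ± 9.41 CPM in unipolar brush cell-like and 2.91 ± 0.87 CPM in PN-like cells.

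Pax5 in the rostral-like cells of E18.5 was uneven, with 100.6, 15.0 and 23.8 CPM in Ctrl 1, 2 and 3, from 27 to 49 cells each. Ctrl 1 of E18.5 held a single inhibitory-like cell and was left out of that class, so its values rest on 14 cells in Ctrl 2 and 31 in Ctrl 3. There Pax2 was 38.5 and 190.3 CPM and Pax8 15.4 and 29.6 CPM. Ctrl 2 was the lower library for both genes.

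At P5 the 2 libraries held no rostral-like class, and PN-like cells held far less Pax6 than granule-like cells in both. Pax6 was 470.04 and 537.79 CPM in granule-like cells, the first from 12 cells, and 92.4 and 97.55 CPM in PN-like cells. Pax3 was 36.87 and 67.76 CPM in granule-like cells and 0.09 CPM on average in PN-like cells. Pax7 was 58.56 and 25.76 CPM in the 70 inhibitory-like cells of this stage, and 0.01 CPM in PN-like cells. The P5 libraries were made from dissected PN rather than whole hindbrain, so stage and dissection cannot be told apart there, and no test was made.

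PN-like cells of E14.5 were divided by marker genes into progenitor-like, intermediate progenitor-like, migrating neuron-like and differentiated neuron-like states, again without Pax genes. In Ctrl libraries Pax3 was 93.81 ± 7.22 CPM in progenitor-like, 68.62 ± 17.6 CPM in intermediate progenitor-like, 16.75 ± 4.69 CPM in migrating and 1.17 ± 0.36 CPM in differentiated cells. Pax6 stayed high for longer, at 680.19 ± 141.11, 781.38 ± 32.97, 487.87 ± 31.71 and 262.46 ± 10.82 CPM in the same order. The Pax6 levels of the first 2 states overlapped, and those of the last 2 stood below them. Pax5 was highest in the migrating state, at 11.59 ± 5.12 CPM against 0.57 to 2.44 CPM in the other 3. Pax2 followed the same outline at a lower level, with 3.34 ± 1.36 CPM in the migrating state, which held 74 of its 96 UMIs, and 0.21 to 0.82 CPM elsewhere.

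**Figure D2:**
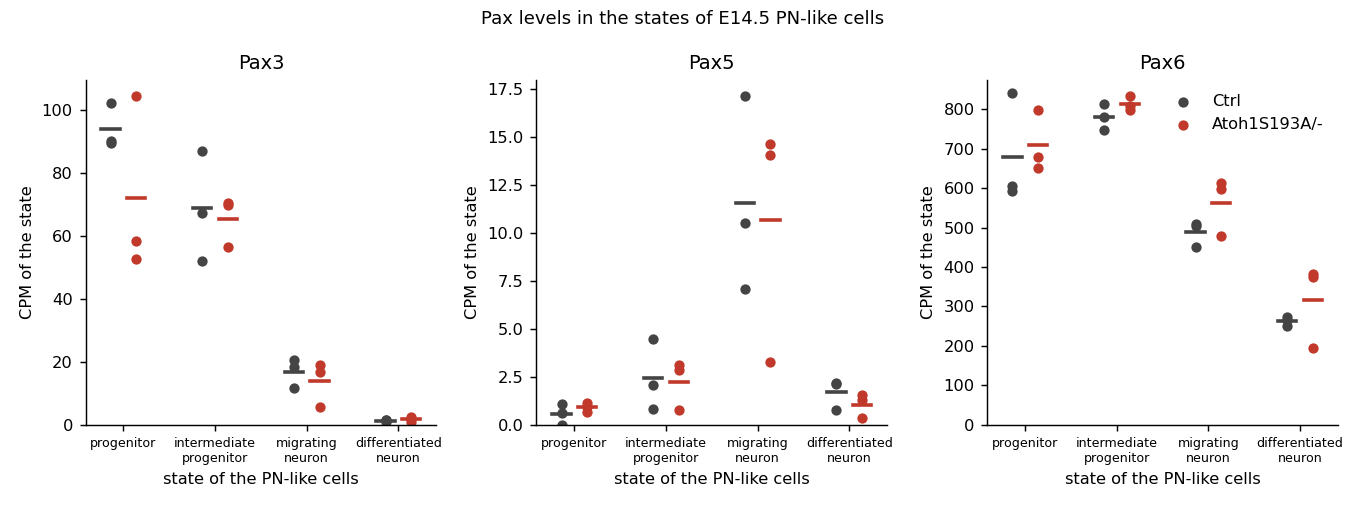
Level of Pax3, Pax5 and Pax6 (vertical axes, CPM of the state) in the 4 states of E14.5 PN-like cells (horizontal axis) for 3 Ctrl (grey) and 3 Atoh1S193A/- (red) libraries; points are libraries and bars their means. Pax3 is highest in progenitor-like cells, Pax5 in migrating cells, and Pax6 is lowest in differentiated cells in both genotypes.

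Finer clusters separated the members further. Among rostral-like clusters of E14.5 Ctrl libraries, Pax5 was 445.45 CPM in a cluster led by Ppp1r17, Th, En1 and En2, where 93.92% of cells held a Pax5 UMI. It was 370.92 CPM in a cluster led by Sst, Adarb2 and En1 and 264.24 CPM in one led by C1ql4, Zfhx3 and Zfhx4. The other 4 rostral-like clusters held 10.55 to 75.41 CPM, so 3 of 7 clusters carried most of the Pax5 of the class.

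In granule-like clusters of E14.5 it was Pax3 that varied most. Pax3 was 245.91 CPM in the cluster led by Nts, Otx2 and Olig2, 182.02 CPM in the cycling cluster with Top2a, 117.04 CPM in the one with Pvalb and Sp5, and 16.42 CPM in the one with Neurod1, Cadps2 and Reln, genes of maturing granule cells. The same contrast was wider at E18.5. There Pax3 reached 256.26 to 285.05 CPM in 4 granule-like clusters, one of them led by Nts, Barx2, Ccnd2 and Hes5, and 2.55 to 4.09 CPM in 3 others, among them clusters led by the neurofilament genes Nefm and Nefl. Pax5 was 0.16 to 1.27 CPM in those 4 clusters with high Pax3 and 12.76 to 15.78 CPM in 4 other granule-like clusters. Pax6 spanned a narrower range over the granule-like clusters of E18.5, from 388.65 to 1143.23 CPM, the highest in a cluster led by Bcl11b and Nr2f2. In the unipolar brush cell-like clusters it was highest, at 1025.09 CPM, beside Pax3 at 187.27 CPM in the cluster with Neurod4 and Mfng, and lowest, at 355.31 CPM, in the cluster with Calb2, Tac2 and Grp.

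Inhibitory-like cells of E14.5 were not uniform. Pax2 was highest, at 552.63 CPM, in a cluster of 88 cells led by Hoxb8, Hoxb6 and Hoxb9, where Pax8 was also highest at 161.67 CPM and 90.48% of cells held a Pax2 UMI. A Tfap2b cluster held 383.02 CPM of Pax2 with 39.28 CPM of Pax8, and an Npy, Sall3 and Hoxb8 cluster 292.14 CPM of Pax2 with 108.2 CPM of Pax8. In contrast, the cluster led by Gata3, Sox14 and En1 held 413.02 CPM of Pax5 and 81.79 CPM of Pax7. Pax7 was highest in 2 small clusters of 21 and 16 cells, at 488.65 and 418.72 CPM, where Pax3 was also present at 182.21 and 151.2 CPM. The first of these was led by Tfap2b, Sox14 and Gata3. Sox14 and Gata3 are transcription factors of GABAergic neurons.

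Over 46 clusters of E14.5 with at least 20 Ctrl cells, which leaves out the 2 small clusters highest in Pax7, the Pearson correlation of log2(CPM + 1) between Pax2 and Pax8 was 0.856. The clusters share libraries and depth, and the value is a description. Of 7831 genes that reached 50 CPM in a cluster, the 3 nearest to Pax2 were Slc30a3 (0.867), Pax8 and Slc6a5 (0.855), the glycine transporter of inhibitory neurons. Those nearest to Pax8 were Pax2, Sall3 (0.844) and Slc30a3 (0.799). Pax3 was nearest to Tgif2 (0.889), Nudt5 (0.875) and Nudcd2 (0.87), and Pax6 to Cd9 (0.784), Qser1 (0.752) and Chd7 (0.752). Pax7 was nearest to Six3 (0.768), Emx2 (0.749) and Otp (0.704), and Pax5, with the lowest values, to Pou3f2 (0.689), Dmrtb1 (0.66) and Zfp37 (0.644). Over 34 clusters of E18.5, Pax2 was nearest to Gad2 (0.839), Pitpnm3 (0.779) and Ttc21b (0.774), and Pax5 to Slitrk5 (0.699), Pbx3 (0.636) and Prep (0.57). Pax3 was nearest to Gm42047 (0.93), Ccnd2 (0.913), a cyclin of dividing precursors, and Sp1 (0.901), while Pax6 was nearest to Nfia (0.892), Txnip (0.89) and Cecr2 (0.876). Over 30 clusters of P5, Pax6 was nearest to Nfib (0.921), Nfix (0.894) and Reln (0.893), and Pax3 to Pgm2 (0.894), Insm1 (0.864) and Cog7 (0.858).

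**Figure D3:**
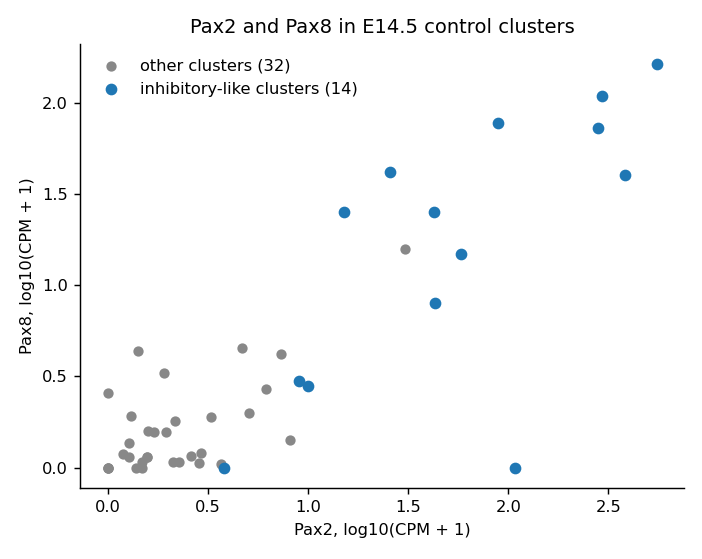
Pax8 (vertical axis) against Pax2 (horizontal axis), both as log10(CPM + 1), in 46 clusters of E14.5 Ctrl cells; blue points are the 14 inhibitory-like clusters and grey points the other 32. The clusters highest in either gene are inhibitory-like, and the correlation of log2(CPM + 1) over the 46 clusters is 0.856.

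In single cells the overlap of members was counted after each cell was thinned to 5000 UMIs. Among 15840 E14.5 Ctrl cells, 59 held both Pax2 and Pax8, which was 25.65% of the 230 cells with Pax2 and 48.76% of the 121 cells with Pax8. Within 620 inhibitory-like cells, 55 held both, which was 37.41% of the 147 with Pax2 and 61.8% of the 89 with Pax8. Of 1868 cells with Pax3, 1447 held Pax6 too (77.46%), beside 40.13% of all these cells with Pax6. In granule-like cells the share was 879 of 967 (90.9%), beside 90.47% of all granule-like cells. Of 83 cells with Pax7, 43 held Pax3 (51.81%). Pax2 and Pax3 shared 4 cells.

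Between E14.5 and E18.5, Pax6 fell in Ctrl PN-like cells, Pax3 fell in granule-like cells, and Pax5 fell in rostral-like cells. Over all cells, classes and stages, 61 values of Pax genes passed the filter on low counts and were tested, and 7 were called by the main test, all of them in this comparison of stages. Of the 7, 4 passed the filter at both stages. The other 3 (Pax3 in PN-like, Pax6 in rostral-like and Pax5 in all kept cells) passed it through the stage where the gene was high, so that their p-values are conditional on it. Without the filter those 3 values were called as well, with the same signs. A call needed an adjusted p below 0.05 and a log2 change beyond 0.25 (edgeR quasi-likelihood test on sums per library, Benjamini-Hochberg over all genes tested). Stage differences were common: 63.6% of all genes tested in PN-like cells were called, 46.4% in granule-like cells, 18.3% in rostral-like cells, 8.3% in inhibitory-like cells and 51.6% in all kept cells together.

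In PN-like cells Pax3 was 31.9, 22.1 and 18.3 CPM in Ctrl 1, 2 and 3 of E14.5 and 3.2, 3.6 and 1.9 CPM in those of E18.5. Every E18.5 library lay below every E14.5 library. Pax3 fell by 3.22 on the log2 scale (SE 0.275, edgeR adjusted p = 3.123e-05), and it passed the filter on low counts at E14.5 alone. PN-like cells were divided into states at E14.5 alone, so the part of the mix of states in these changes was not tested. Pax6 in the same cells was 499.0, 498.3 and 391.6 CPM at E14.5 and 359.6, 387.1 and 318.9 CPM at E18.5, again without overlap. Pax6 fell by 0.49 on the log2 scale (SE 0.116, edgeR adjusted p = 0.00541), though without the removal of likely doublets the change was -0.01 (adjusted p = 0.943), and without the 2 libraries of the older Cell Ranger version, which left 1 Ctrl library at E14.5, it was -0.29 (adjusted p = 0.083). Pax2 and Pax5 were below the filter in PN-like cells. Without it, Pax2 rose by 0.80 (edgeR adjusted p = 0.0321) and Pax5 fell by 0.77 on the log2 scale (adjusted p = 0.0190).

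In granule-like cells Pax3 was 159.7, 109.9 and 126.2 CPM at E14.5 and 92.1, 97.9 and 98.8 CPM at E18.5. The E18.5 libraries were lower and closer together. Pax3 fell by 0.54 on the log2 scale (SE 0.120, edgeR adjusted p = 0.00687), and by 0.24 with a 10% limit on mitochondrial UMIs (adjusted p = 0.0987). Granule-like clusters differed widely in Pax3 at both stages, and the part of their mix in this change was not tested. Nor was the part of the unipolar brush cell-like class, which was split off at E18.5 but not found at E14.5. Pax6 in granule-like cells changed by -0.01 (SE 0.0902, edgeR adjusted p = 0.920), with means of 604.11 and 637.20 CPM. Pax5 in the same cells changed by -0.32 (adjusted p = 0.0773), a value that was called without Ctrl 1 of E14.5 (-0.42) and with the 10% limit (-0.38, adjusted p = 0.0266). Without the filter Pax7 and Pax8, each below 1 CPM in these cells, were also called (-3.39 and -2.64).

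In rostral-like cells Pax5 was 160.8, 159.1 and 148.6 CPM at E14.5 and then 100.6, 15.0 and 23.8 CPM at E18.5. All 3 E18.5 libraries were lower, by very unequal amounts. Pax5 fell by 1.84 on the log2 scale (SE 0.407, edgeR adjusted p = 0.0110), and by 3.1 without Ctrl 1 of E18.5. DESeq2 gave -1.86 with an adjusted p of 0.0682. The part of the mix of rostral-like clusters in the Pax5 change was not tested. Pax6 in rostral-like cells rose from 6.17 ± 2.24 to 23.14 ± 17.5 CPM (log2 change 1.78, SE 0.513, edgeR adjusted p = 0.0324), having passed the filter at E18.5 alone. This call rested on single libraries: without Ctrl 2 of E18.5 it was 1.15 (adjusted p = 0.206), without Ctrl 1 of E18.5 1.79 (0.105), without Ctrl 1 of E14.5 1.85 (0.0651) and without Ctrl 2 of E14.5 1.46 (0.0577). Microglia-like cells, which should lack the gene, also held Pax6 UMIs after thinning, in 1 of 17 cells at E14.5, 2 of 25 at E18.5 and 33 of 972 at P5. The part of such background in the low Pax6 values of rostral-like and inhibitory-like cells was not tested.

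In inhibitory-like cells, with 5 libraries, no member passed the main edgeR test, but Pax5, Pax6 and Pax8 passed it under other settings. Pax2 changed by 0.03 (edgeR adjusted p = 0.986), a value that ran from -1.91 without Ctrl 3 of E18.5, which leaves the 14 cells of Ctrl 2, to 0.45 without Ctrl 2. Pax5 changed by -3.23 (SE 1.123, adjusted p = 0.0997), and its E14.5 libraries ran from 18.1 in Ctrl 1 to 100.6 and 92.6 CPM in the others. It was called by DESeq2 (-3.08, adjusted p = 0.0226), without the filter (-3.32), with a 10% mitochondrial limit (-2.64, adjusted p = 0.0303), with Cell Ranger 5.0.1 libraries alone (-3.59, with 1 Ctrl library at E14.5, which is assumed to vary like the others) and without Ctrl 1 of E14.5 (-3.65). Pax6 changed by 1.16 (SE 0.371, adjusted p = 0.0740), and was called without the filter (1.07), with the 10% limit (0.93, adjusted p = 0.0487), at Leiden resolution 2.0 (1.75, adjusted p = 0.0302) and without Ctrl 2 of E18.5 (1.55). Without Ctrl 3 of E18.5 the sign of the Pax6 change turned (-1.18, adjusted p = 0.490). Pax8 changed by -0.84 (adjusted p = 0.154), and by -2.07 with the 10% limit (adjusted p = 0.00271), which was called. Pax7, below the filter, had no UMI in the E18.5 libraries and was called when no filter was set. A block for the replicate number, which marks no shared litter between stages, called Pax5 (-3.61, adjusted p = 0.000176) and 4.6% of all genes.

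In sums over all kept cells, fewer cells of a type and less RNA per cell cannot be told apart. There Pax5 fell from 38.9 ± 14.58 to 6.86 ± 0.85 CPM (log2 change -2.60, SE 0.282, edgeR adjusted p = 0.000709), passing the filter at E14.5 alone, beside rostral-like cells that numbered 8223 at E14.5 and 283 at E18.5 over both genotypes. Pax6 rose from 266.52 ± 86.9 to 584.76 ± 29.12 CPM (log2 change 1.06, SE 0.217, adjusted p = 0.00635), beside granule-like cells that numbered 5832 at E14.5 and 23033 at E18.5. The part of these cell numbers in the 2 changes was not tested. Pax3 changed by 0.57 (SE 0.300, adjusted p = 0.149), was 0.28 without Ctrl 2 of E14.5 (adjusted p = 0.162), and was called without Ctrl 1 of E14.5 (0.91, adjusted p = 0.0231), with Cell Ranger 5.0.1 libraries alone (0.54, adjusted p = 0.0160, again with 1 Ctrl library at E14.5) and with a 10% mitochondrial limit (0.98, adjusted p = 0.00813). Below the filter, Pax2 (-2.27), Pax7 (-3.52) and Pax8 (-3.32) were called over all kept cells when no filter was set.

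**Figure D4:**
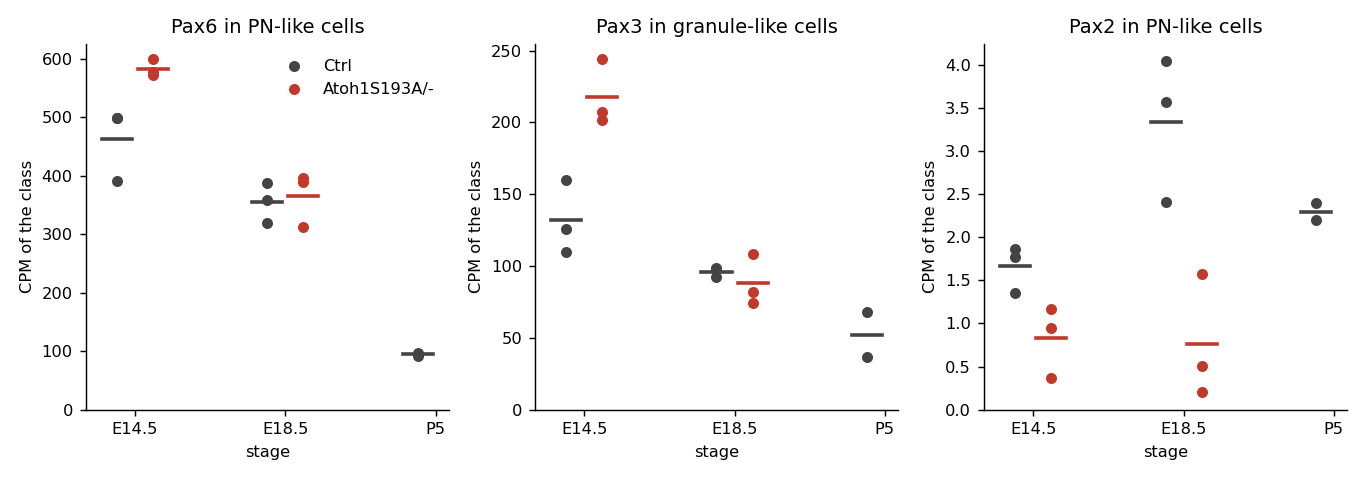
Pax6 in PN-like, Pax3 in granule-like and Pax2 in PN-like cells (vertical axes, CPM of the class) at E14.5, E18.5 and P5 (horizontal axis); points are Ctrl (grey) and Atoh1S193A/- (red) libraries and bars their means. Pax6 in Ctrl PN-like cells descends from 462.98 CPM at E14.5 to 94.98 CPM at P5, and the Atoh1S193A/- libraries lie above Ctrl for Pax6 and Pax3 at E14.5 alone and below Ctrl for Pax2 at both embryonic stages.

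Genes of the surrounding pathways were followed in 5 lists. A gene that passed the filter through 1 stage alone was chosen by the stage where it was high, so the counts between stages are given for genes that passed it at both, beside all genes that did so. In PN-like cells, where 60.2% of such genes were called, 12 of 13 tested rhombic lip genes passed at both stages, and 8 of them fell and 1 rose. They included Atoh1 (log2 change -4.00), Wls (-3.31) and Robo3 (-1.99), a receptor of axon and migration guidance, and Barhl1, which helped to name the class. The median of the 12 was -1.41 against -0.04 for all genes that passed at both stages. Cxcr4 (-4.20), the receptor that guides migrating precursors, passed at E14.5 alone. Of 7 Pax cofactors and partners that passed at both stages, 3 fell, among them Tle1 (-1.61), and 1 rose, with a median of 0.02. Eya1 (-3.07) and Eya2 (-2.86), phosphatases of the Pax-Six-Eya network, passed at E14.5 alone and Tle2 (1.52) at E18.5 alone, as did Msx1 (-6.63) and Olig3 (-3.51) of the dorsal neural tube list at E14.5. Of 2 dorsal neural tube genes that passed at both stages 1 fell.

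In granule-like cells, where 44% of genes that passed at both stages were called, Msx2 (-5.27), Olig3 (-3.85) and Msx1 (-2.71) passed at E14.5 alone. Of 3 dorsal neural tube genes that passed at both stages none fell and 1 rose, Zic1, which helped to name the class. None of 6 midbrain-hindbrain boundary genes was called. Of 12 rhombic lip genes that passed at both stages 4 rose and 5 fell, among them Barhl1, which helped to name the class. The median of the 12 was -0.12 against 0.01 for all genes that passed at both stages. Lmx1a, also called in granule-like cells, helped to split off the unipolar brush cell-like class, found at E18.5 but not at E14.5, so its value is no finding. In rostral-like cells, where Pax5 fell, 17% of genes that passed at both stages were called. None of 3 boundary genes that did so was called, nor was any that passed at 1 stage alone. Of 7 rhombic lip genes that passed at both stages there, 1 rose and 3 fell, among them Meis2, which helped to name the class. In inhibitory-like cells 8.07% of genes that passed at both stages were called. Of 11 inhibitory neuron genes that did so, 2 were called, Lhx5 (-1.61) and Gad1 (1.36). Gad1 helped to name that class, so its value is no finding.

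Comparing genotypes at E14.5, Pax3 was higher in Atoh1S193A/- granule-like cells and Pax6 in Atoh1S193A/- PN-like cells, and edgeR called neither without the litter pairs. Pax3 in granule-like cells was 159.7, 109.9 and 126.2 CPM in Ctrl and 244.3, 207.0 and 201.4 CPM in Atoh1S193A/- 1, 2 and 3. All Atoh1S193A/- libraries were above all Ctrl libraries. The log2 change was 0.70 (SE 0.145, edgeR adjusted p = 0.342, unadjusted p = 0.00133), against 0% of all genes called in this class (edgeR, 614 of them below 0.05 unadjusted, and 78 genes called by DESeq2). With litter as a block it was 0.70 (SE 0.0654, adjusted p = 0.0102) and was called, against 2.47% of all genes, and DESeq2 without the block also called it (0.70, adjusted p = 0.00453). In every E14.5 genotype comparison, Ctrl 1 and 2 came from an older Cell Ranger version than their mutant litter-mates. Genotype and version cannot be told apart within those pairs.

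The difference in Pax3 was also seen within clusters. In the cycling granule-like cluster Pax3 was 204.3, 146.5 and 185.6 CPM in Ctrl and 290.7, 283.9 and 255.4 CPM in Atoh1S193A/-, and in the Pvalb and Sp5 cluster 151.2, 85.6 and 110.6 against 225.7, 161.1 and 174.5 CPM. The groups did not overlap in either. In the Nts and Otx2 cluster, 289.9, 249.7 and 213.4 CPM overlapped with 345.8, 346.0 and 275.0 CPM, with the mutant higher in each litter pair, and in the Neurod1 cluster the groups overlapped at 10.4 to 24.8 CPM. The mix of clusters moved too. The Neurod1 cluster, low in Pax3, made up 29.99%, 27.01% and 32.42% of granule-like cells in Ctrl and 21.83%, 14.16% and 22.94% in Atoh1S193A/-, and its part in the class value was not tested.

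Pax6 in PN-like cells was 499.0, 498.3 and 391.6 CPM in Ctrl and 600.2, 571.9 and 578.1 CPM in Atoh1S193A/-. The groups did not overlap, and Ctrl 3 was the lowest library. The log2 change was 0.30 (SE 0.105, edgeR adjusted p = 0.204), not called, against 3.12% of all genes called in this class. With litter as a block it was 0.31 (SE 0.0769, adjusted p = 0.0329) and was called, against 15.8% of all genes. It was 0.18 when no cell was left out as a doublet. With the libraries of the newer Cell Ranger version alone it was 0.52, which left Ctrl 3, the lowest library, as the only Ctrl. Within the 4 states of PN-like cells the change was 0.01, 0.04, 0.17 and 0.23 from progenitor-like to differentiated, none of them called (edgeR adjusted p at least 0.995), against 0.0392%, 0.0325%, 0.0315% and 0% of all genes (in the last state 157 genes were below 0.05 unadjusted, 0 called by DESeq2). Progenitor-like cells, one of the states with high Pax6, were more frequent in the mutants. They made up 4.14%, 6.82% and 2.82% of PN-like cells in Ctrl and 15.03%, 19.81% and 16.09% in Atoh1S193A/-. Intermediate progenitor-like cells were 203 of 822, 137 of 895 and 207 of 1456 PN-like cells in Ctrl. In Atoh1S193A/- they were 330 of 1131, 181 of 853 and 329 of 1386. The differentiated state, lowest in Pax6, held 263, 278 and 708 of the same PN-like cells in Ctrl and 337, 144 and 423 in Atoh1S193A/-. The part of the mix of states in the class value was not tested.

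**Figure D5:**
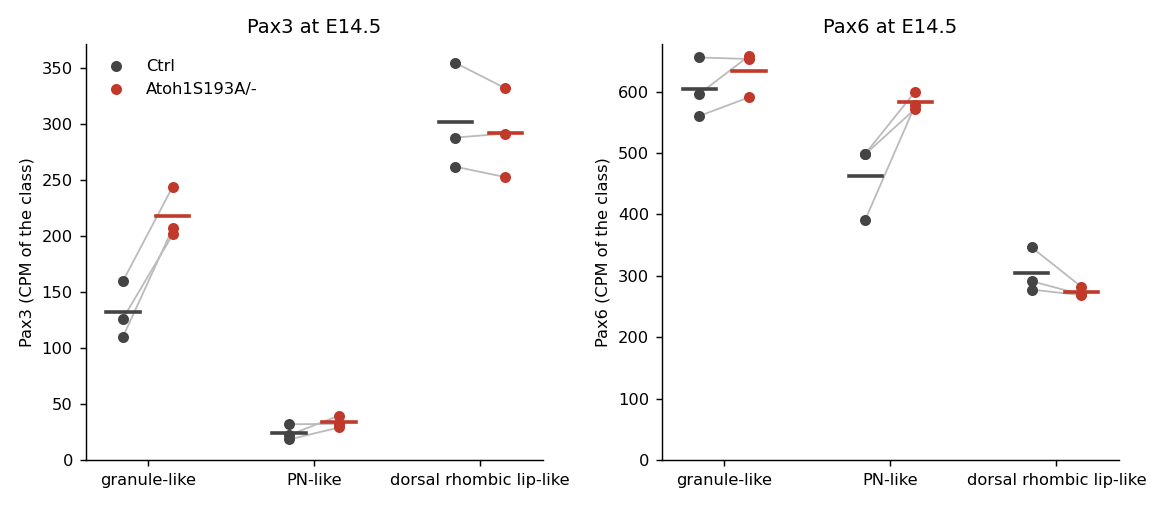
Pax3 (left) and Pax6 (right) at E14.5 (vertical axes, CPM of the class) in granule-like, PN-like and dorsal rhombic lip-like cells (horizontal axis) of 3 Ctrl (grey) and 3 Atoh1S193A/- (red) libraries; points are libraries, bars their means, and thin lines join litter-mates. Atoh1S193A/- libraries lie above every Ctrl library for Pax3 in granule-like and Pax6 in PN-like cells, and the groups overlap for Pax3 in dorsal rhombic lip-like cells.

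Pax3 in PN-like cells was 31.9, 22.1 and 18.3 CPM in Ctrl and 32.2, 39.6 and 29.0 CPM in Atoh1S193A/-, which overlapped. The log2 change was 0.45 (SE 0.204, edgeR adjusted p = 0.309) and 0.47 with the block (adjusted p = 0.0565), and the blocked fit without the filter, added after the data were seen, called it (0.47, adjusted p = 0.0129). In the progenitor-like state the direction was the opposite, with 89.4, 102.1 and 89.9 CPM in Ctrl and 52.7, 104.3 and 58.4 CPM in Atoh1S193A/-. Atoh1S193A/- 2 was the highest library of all and the other 2 mutants the lowest. The log2 change was -0.46 (SE 0.219, adjusted p = 1.00), and without Atoh1S193A/- 2 it was -0.78 (adjusted p = 0.0495), which was called. Pax3 in dorsal rhombic lip-like cells was 354.8, 262.0 and 288.0 CPM in Ctrl and 332.1, 252.7 and 291.5 CPM in Atoh1S193A/-, interleaved.

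Over all kept cells of E14.5, Pax3 was 76.1, 28.6 and 51.1 CPM in Ctrl and 124.1, 56.9 and 89.2 CPM in Atoh1S193A/-. The groups overlapped, but within each litter the mutant was higher. The log2 change was 0.78 (SE 0.404, edgeR adjusted p = 0.498), against 0.00977% of all genes called, and 0.80 with the block (SE 0.0509, adjusted p = 0.00317), against 17.6%. Dorsal rhombic lip-like cells, rich in Pax3, made up 4.19%, 3.46% and 3.32% of kept cells in Ctrl and 9.34%, 10.68% and 7.73% in Atoh1S193A/-. Without these cells, a comparison added after the data were seen, the blocked change was 0.68 (adjusted p = 0.0126). Pax6 was 354.2, 180.5 and 264.9 against 411.1, 203.1 and 338.5 CPM, a change of 0.24 (adjusted p = 0.807) or 0.22 with the block (adjusted p = 0.0406), below the limit of 0.25. Pax5 was 24.9, 54.0 and 37.8 against 18.2, 52.7 and 28.3 CPM, lower in the mutant of each litter. Rostral-like cells, rich in Pax5, made up 14.4%, 34.0% and 23.1% of kept cells in Ctrl and 10.4%, 35.4% and 17.3% in Atoh1S193A/-, lower in the mutant of litters 1 and 3, and their part in the Pax5 values was not tested. The change of Pax5 was -0.28 (adjusted p = 0.825) and -0.33 with the block (SE 0.0814, adjusted p = 0.0340), and without dorsal rhombic lip-like cells the blocked change was -0.24 (adjusted p = 0.150). With 1 library left out, the Pax5 change without the block ran from -0.76 (without Atoh1S193A/- 2) to 0.04 (without Ctrl 2), and it was also near 0 without Atoh1S193A/- 1 (0.01).

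In rostral-like cells, the class where it was highest, Pax5 was 160.8, 159.1 and 148.6 CPM in Ctrl and 149.9, 151.8 and 160.6 CPM in Atoh1S193A/-. The groups interleaved, with a log2 change of -0.05 (SE 0.0799, edgeR adjusted p = 1.00), where 0% of all genes were called (61 below 0.05 unadjusted, 0 called by DESeq2). Pax6 in granule-like cells was 655.7, 596.3 and 560.3 against 653.3, 658.2 and 590.8 CPM, a change of 0.04 (SE 0.0971, adjusted p = 0.998). Pax5 in granule-like cells changed by -0.06 (adjusted p = 0.999).

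In inhibitory-like cells of E14.5, Pax2 was 182.5, 94.8 and 114.8 CPM in Ctrl and 166.2, 75.3 and 109.4 CPM in Atoh1S193A/-. In each litter the mutant was slightly lower, and the groups overlapped (log2 change -0.18, SE 0.292, edgeR adjusted p = 1.00). Pax8 was 48.8, 37.9 and 44.9 CPM in Ctrl and 39.1, 31.0 and 26.7 CPM in Atoh1S193A/-. Its change was -0.46 (SE 0.166, adjusted p = 1.00), and -0.45 with the block (adjusted p = 0.413), where edgeR called 0.0421% of all genes with the block and 0% without it (228 below 0.05 unadjusted, 0 called by DESeq2). Pax5 ran from 18.1 to 100.6 CPM in Ctrl and from 24.1 to 82.3 CPM in Atoh1S193A/- (-0.65, adjusted p = 1.00). Pax7, below the filter, was 7.3, 28.2 and 29.0 against 2.7, 30.0 and 16.0 CPM, and in both genotypes the library of litter 1 was the lowest.

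Around the members, no gene of the 5 lists was called at E14.5 without the block in all kept, PN-like, granule-like, inhibitory-like or rostral-like cells, where 0.00977%, 3.12%, 0%, 0% and 0% of all genes were called. In the progenitor-like state, where 0.0392% of all genes were called, 1 of 10 rhombic lip genes was called. It was Barhl1, a transcription factor of the rhombic lip that also helped to name the PN-like class in both genotypes, which fell by 2.29 on the log2 scale (edgeR adjusted p = 0.000203). With the block, which called 17.6% of all genes over all kept cells, 5 of 8 tested dorsal neural tube genes rose over all kept cells and none fell, led by Msx1 (log2 change 1.49), Wnt1 (1.26) and Msx2 (0.95), with a list median of 0.45 against 0.00 for all genes. Beside the higher share of dorsal rhombic lip-like cells given above, choroid plexus-like cells made up 0.616%, 0.74% and 0.944% of kept cells in Ctrl and 1.03%, 2.17% and 5.48% in Atoh1S193A/-, and the part of either class in the values of these lists was not tested. Among 9 boundary genes 3 rose (Wnt1, Otx2 at 0.80 and Dusp6 at 0.43) and En1 fell (-0.40). Of 15 rhombic lip genes 2 rose (Wls, 1.25, and Atoh1, 0.48) and 3 fell, with Barhl1 (-0.49) and Mab21l1 (-0.32) changing most. Of 8 cofactors 1 rose, Eya1 (0.64), and of 3 inhibitory neuron genes none was called. In PN-like cells, against 15.8% of all genes, 3 of 5 dorsal neural tube genes rose (Msx1, 1.49, Msx2, 1.40, and Olig3, 0.75), as did 2 of 9 cofactors (Eya1, 0.72, and Tle4, 0.37). In granule-like cells, where Pax3 rose with the block and 2.47% of all genes were called, none of 7 dorsal neural tube genes was called (median 0.21), 1 of 9 cofactors rose (Tle4, 0.54), and of 7 boundary genes Otx2 rose (0.45) and En1 fell (-0.69).

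At E18.5 no member that passed the filter was called in any class, with or without the block, when all libraries entered. Pax7 passed it in no class, and Pax2, Pax5 and Pax8 in rostral-like or inhibitory-like cells alone. With the block, the share of all genes called was 0.253% in all kept, 0.514% in PN-like, 0.54% in granule-like, 0.154% in inhibitory-like and 0.00987% in rostral-like cells. Pax6 in PN-like cells was 359.6, 387.1 and 318.9 CPM in Ctrl and 388.7, 397.0 and 313.2 CPM in Atoh1S193A/-, interleaved (log2 change 0.04, SE 0.102, edgeR adjusted p = 1.00), where 0% of all genes were called (edgeR, 365 below 0.05 unadjusted, 9 called by DESeq2). The change in granule-like cells was -0.00 (SE 0.0945), against 0.0306% of all genes called. Pax3 in granule-like cells was 92.1, 97.9 and 98.8 CPM in Ctrl and 108.3, 74.4 and 81.8 CPM in Atoh1S193A/-, a change of -0.15 (SE 0.129, adjusted p = 1.00). Atoh1S193A/- 1 was the highest library and the other 2 mutants the lowest. Over all kept cells Pax3 changed by -0.06 and Pax6 by 0.00, where 0% of all genes were called (115 below 0.05 unadjusted, 13 called by DESeq2).

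In the small inhibitory-like class of E18.5, with 5 libraries, Pax2 was 38.5 and 190.3 CPM in Ctrl 2 and 3 and 325.7, 273.3 and 199.3 CPM in Atoh1S193A/-. The groups did not overlap, although Ctrl 3 came close to Atoh1S193A/- 3. The log2 change was 0.92 (SE 0.343, edgeR adjusted p = 0.688), against 0.072% of all genes called, and without Ctrl 3, which leaves 1 Ctrl library of 14 cells, it was 2.79 (adjusted p = 0.00405). Pax3 was 7.7 and 6.3 against 31.0, 28.3 and 24.0 CPM, on 1 to 13 UMIs a library (1.96, SE 0.668, adjusted p = 0.580). In rostral-like cells Pax5 changed by -0.11 and Pax6 by -0.22, where 0% of all genes were called (298 below 0.05 unadjusted, 0 called by DESeq2). Both signs turned without some single libraries. Pax5 ran from -1.13 without Atoh1S193A/- 1 to 0.39 without Atoh1S193A/- 3, and Pax6 from -0.69 without Ctrl 3 to 0.43 without Ctrl 2.

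Whether the genotype difference itself changed between E14.5 and E18.5 was tested as an interaction over 12 libraries (11 in inhibitory-like cells). Without the block no member was called, against 0% of all genes in all kept, granule-like and rostral-like cells (edgeR, 796, 590 and 264 below 0.05 unadjusted), 0.131% in PN-like and 0.00985% in inhibitory-like cells. With the block, Pax3 was called in granule-like cells, where the difference of 0.70 at E14.5 stood against -0.15 at E18.5 (interaction -0.86, SE 0.156, adjusted p = 0.0462), against 1.21% of all genes. Pax3 and Pax5 were called over all kept cells, where 1532 of the 10533 genes tested were called. In PN-like, inhibitory-like and rostral-like cells no member was called with the block, against 9.23%, 0.0197% and 0% of all genes. The older Cell Ranger version of Ctrl 1 and 2 occurred at E14.5 alone, so it cannot be told apart from these interactions.

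Pax2 was lower in Atoh1S193A/- than in Ctrl PN-like cells at both stages, at a very low level. At E14.5 it was 1.86, 1.36 and 1.77 CPM in Ctrl, from 29, 24 and 43 UMIs, and 0.95, 0.37 and 1.16 CPM in Atoh1S193A/-, from 21, 7 and 35 UMIs. At E18.5 it was 4.05, 3.57 and 2.41 CPM in Ctrl, from 35, 28 and 40 UMIs, and 1.57, 0.20 and 0.50 CPM in Atoh1S193A/-, from 18, 1 and 5 UMIs. At both stages every Atoh1S193A/- library lay below every Ctrl library. Pax2 did not reach the filter of a UMI in 10% of cells. Without the filter its log2 change was -1.0 at E14.5 (edgeR adjusted p = 0.294) and -1.89 at E18.5 (adjusted p = 0.147). With the block as well, a fit added after the data were seen, it was -1.04 (adjusted p = 0.0289) and -1.97 (adjusted p = 3.655e-06).

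The share of PN-like cells of E18.5 with a Pax2 UMI, after thinning to 5000 UMIs, was 2.29%, 1.807% and 0.979% in Ctrl and 0.49%, 0% and 0.49% in Atoh1S193A/- (5.84%, 3.98% and 3.7% against 1.29%, 0.35% and 0.80% before thinning). The groups were apart on both scales, but the thinned share of Atoh1S193A/- 2 was 0 of 283 cells, which allows a share of up to 1.06%, above that of Ctrl 3. At E14.5 the thinned shares overlapped, at 0.977%, 0.447% and 0.829% in Ctrl and 0.178%, 0.117% and 0.868% in Atoh1S193A/-. Granule-like cells of the same Ctrl libraries held 0.41 CPM of Pax2 at E14.5 and 0.25 CPM at E18.5, below the PN-like level at both stages.

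Within PN-like clusters of E18.5, Pax2 was highest in the one led by Robo3 and Crabp1, genes of migrating PN neurons, at 13.0, 11.9 and 5.4 CPM in Ctrl and 4.9, 0 and 0 CPM in Atoh1S193A/-. The next cluster held 4.2, 4.2 and 6.4 CPM in Ctrl and 1.0, 1.2 and 1.8 CPM in Atoh1S193A/-. The measured values of neither cluster overlapped between genotypes. In the Robo3 and Crabp1 cluster, the zeros of Atoh1S193A/- 2 and 3 came from 44 and 26 cells, and the Ctrl 3 value from 7 UMIs. With counts this small, Ctrl 3 cannot be set apart from the mutants there. In the other 2 PN-like clusters of E18.5 the groups overlapped, at 1.5, 1.7 and 0.33 CPM in Ctrl against 1.3, 0 and 0.23 CPM in one and 0.91, 0 and 0.98 against 0, 0 and 0.27 CPM in the other, as they did in all 4 PN-like clusters of E14.5. Within litters the mutant was lower in each pair in the first of these and in 2 of the 4 clusters of E14.5. Those held 1.62, 1.24 and 2.62 against 1.24, 0.16 and 1.3 CPM, and 3.54, 1.83 and 3.16 against 1.31, 0.64 and 2.35 CPM. The second cluster made up 30.7%, 34.7% and 28.0% of PN-like cells in Ctrl and 19.3%, 19.3% and 19.0% in Atoh1S193A/-. At P5 Pax2 was 2.39 and 2.19 CPM in PN-like cells, from 436 UMIs in all, with a UMI in 0.995% and 1.124% of thinned cells. Of 972 thinned microglia-like cells at P5, which should lack the gene, 0 held a Pax2 UMI, which allows a share of up to 0.309%, counting error only. An unnamed P5 cluster with Reln held 5.84 CPM. Before thinning, 16.43% of its cells held a Pax2 UMI, a share that cannot be set beside the thinned ones. 

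The shares of all kept cells with a UMI of each gene were compared between genotypes after the same thinning. With 3 libraries against 3 an exact permutation test cannot go below 0.1. At E14.5 cells with Pax3 made up 12.7% ± 5.38 in Ctrl and 20.9% ± 7.01 in Atoh1S193A/- (SD, n = 3, two-sided exact permutation p = 0.3). That test does not use the litter pairs, in which the share was 17.4% in Ctrl and 27.2% in the mutant, 6.86% and 13.4%, and 13.9% and 22.1%, higher in the mutant of each pair. At E18.5 cells with Pax5 made up 2.58% ± 0.188 and 3.13% ± 0.231, without overlap (two-sided exact permutation p = 0.1, the smallest possible, adjusted p = 0.6 over 6 genes). Pax5 in granule-like cells of E18.5, below the filter, was 7.1, 6.8 and 6.3 CPM in Ctrl and 8.5, 8.9 and 8.2 CPM in Atoh1S193A/-, also without overlap (log2 change 0.33 without the filter, edgeR adjusted p = 0.846).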

How the data were processed

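Counts of UMIs per gene and cell were deposited by the authors for 14 mouse libraries, as raw matrices of droplets called as cells. They were made with Cell Ranger, version 5.0.1 by the study's methods, although the file headers name 3.1.0 for Ctrl 1 and 2 of E14.5 and 5.0.1 for the other 12, on mm10 with a viral WPRE sequence added. The authors set a floor of 1000 genes per cell, kept mitochondrial UMIs under 1% and removed doublets with DoubletFinder.

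Here, barcodes with at least 1000 genes and at most 5% mitochondrial UMIs were kept (86757 of 150188), and the 7.5% with the highest Scrublet score per library (scanpy 1.11.5) were removed, which left 80250. At E14.5 the limits passed 3511 of 7972, 6867 of 10407 and 7100 of 12869 barcodes in Ctrl. They passed 5160 of 9672, 7474 of 9000 and 7104 of 10812 in Atoh1S193A/-, a larger part in each litter. The effect of this on class shares was not tested. Cells of a stage were clustered (2000 variable genes, 30 components, 15 neighbours, Leiden resolution 1.0, leidenalg 0.10.2), leaving out the Pax genes and all listed genes. Clusters were named from marker genes, with limits set after their means were seen. Counts were summed per library and class (at least 10 cells) and tested with edgeR 4.0.16 (TMM, quasi-likelihood, R 4.3.3) on genes detected in 10% or more of a group's cells. The standard error is the log2 change divided by the square root of F. Each mutant embryo was collected with a litter-mate control. The labels do not say that a shared number marks a litter, but the deviations of same-numbered libraries from their group means correlated for every pair (E14.5, all kept cells, 0.437, 0.63 and 0.582; PN-like cells, 0.344, 0.619 and 0.496; E18.5, 0.444, 0.403 and 0.726; PN-like cells, 0.383, 0.176 and 0.567), so same-numbered libraries were taken as litter pairs and fits with litter as a block are given where they change a call. Different-numbered pairs ran from -0.508 to 0.248 (both in all kept cells of E18.5), each below the same-numbered pairs of its stage and cells. The correlation does not say what same-numbered libraries shared. Numbers shared between stages are not litters.

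On data simulated for the E14.5 PN-like genotype comparison (13865 genes), edgeR recovered 80 of 100 genes changed 2-fold and 22 of 100 changed 1.5-fold, with 4 false calls.

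The 6 members, the lists and the tests were chosen with earlier results of these data known. The text names the 6 members, up to 4 called genes of each list (midbrain-hindbrain boundary, dorsal neural tube, inhibitory neuron, rhombic lip, Pax cofactor) with the largest change, and the 3 genes nearest over clusters to each member that reached 50 CPM in one. The value of 1 called list gene is not reported here. Leading genes of clusters and the examples of single clusters were chosen after their values were seen. Alternatives were DESeq2 1.42.0 and its size factors, no filter, a 10% mitochondrial limit, no doublet removal, Leiden resolution 2.0, the libraries of Cell Ranger 5.0.1 alone, the replicate block and leaving out each library.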

Additional observations from a re-analysis of the deposited data

Results flagged for a closer look

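A test of the change in genotype difference between E14.5 and E18.5 called 3 Pax values with litter as a block and none without it. Ctrl 1 and 2 of E14.5 came from an older Cell Ranger version than their mutant litter-mates and all E18.5 libraries. In those pairs version cannot be told apart from the change between stages. Over all kept cells, the log2 difference between Atoh1S193A/- and Ctrl was lower at E18.5 than at E14.5 by -0.8642 for Pax3 (SE 0.131, edgeR adjusted p = 0.00842) and higher by 0.6544 for Pax5 (SE 0.115, adjusted p = 0.0117), where 1532 of the 10533 genes tested were called. In granule-like cells it was lower by -0.8577 for Pax3 (SE 0.156, adjusted p = 0.0462), where 1.21% were called. Without the block the 3 values were -0.83 (adjusted p = 0.732), 0.60 (0.827) and -0.84 (0.544), none of them called. The Pax5 value without the block ran from 0.30 without Ctrl 2 of E14.5 to 1.09 without Atoh1S193A/- 2 of E14.5. There edgeR called 0 of all genes in both cell sets (796 and 590 below 0.05 unadjusted). The share of dorsal rhombic lip-like cells, of 3.32% to 4.19% in Ctrl and 7.73% to 10.68% in Atoh1S193A/-, was found at E14.5, and its part in the values over all kept cells was not tested for the difference between stages.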

How the results depend on the processing

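The 7 called Pax values had the same sign in all 96 alternative values, 10 of which were no longer called. Pax6 in PN-like cells was at -0.01 with doublets kept and -0.29 with Cell Ranger 5.0.1 libraries alone. Pax3 in granule-like cells was at -0.24 with a 10% mitochondrial limit. In rostral-like cells Pax5 lost its call with DESeq2 (-1.86) and with Cell Ranger 5.0.1 alone (-1.81, adjusted p = 0.131), and Pax6 with Cell Ranger 5.0.1 alone (1.36, adjusted p = 0.271) and when any of 4 libraries was left out (1.15 to 1.85). Counts of called genes over the whole table depended strongly on the block and the tool. In the E14.5 genotype comparison of all kept cells 1 gene was called, against 1802 with the replicate block, 249 with DESeq2, 11 with a 10% mitochondrial limit and 0 with doublets kept, with Cell Ranger 5.0.1 libraries alone or without dorsal rhombic lip-like cells (523 with the block as well). In PN-like cells 312 became 1579 with the replicate block, 662 with DESeq2, 588 without the filter (2362 with the block as well), 149 with the newer Cell Ranger alone, and 0 with the 10% mitochondrial limit or with doublets kept. In granule-like cells 0 became 250 with the replicate block, 78 with DESeq2 and 21 without the filter, and in inhibitory-like cells 4 with the block and 14 without the filter. In the progenitor-like state 4 became 63 with the replicate block, 14 with DESeq2, 86 without the filter and 1 with the newer Cell Ranger alone. In the intermediate progenitor-like state 3 became 131, 38, 141 and 0, in the migrating state 3 became 30, 17, 28 and 0, and in the differentiated state 0 became 2 with the block.

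At E18.5, 0 in all kept cells became 25 with the replicate block and 13 with DESeq2, and 0 in PN-like cells became 51 with the block, 9 with DESeq2, 9 without the filter and 256 without the filter but with the block. In granule-like cells 3 became 53 with the block, 45 with DESeq2, 12 without the filter and 5 with the 10% mitochondrial limit. In inhibitory-like cells 7 became 15, 3, 68 and 0, and in rostral-like cells 0 became 1 with the block and 22 without the filter. The difference between stages in the genotype effect was called for 1532 genes with the replicate block against 0 in all kept cells, 989 against 14 in PN-like cells (22 with DESeq2's size factors), 125 against 0 in granule-like cells and 2 against 1 in inhibitory-like cells. In the comparison of stages, 816 genes in inhibitory-like cells became 452 with the replicate block, 1367 without the filter, 276 with the newer Cell Ranger alone and 2073 with the 10% mitochondrial limit, and 1853 in rostral-like cells became 86 with the newer Cell Ranger alone.

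Leaving out 1 library at a time gave 0 to 1 genes for E14.5 all kept cells, 0 to 268 for PN-like, 0 to 1 for granule-like, 0 to 1 for inhibitory-like and 0 to 1 for rostral-like cells. It gave 1 to 46 in the progenitor-like, 0 to 27 in the intermediate progenitor-like, 0 to 8 in the migrating and 0 to 1 in the differentiated state. At E18.5 it gave 0 for granule-like cells and 2 to 49 for inhibitory-like cells. For the difference between stages it gave 0 to 1 in all kept, 1 to 127 in PN-like, 1 to 7 in inhibitory-like and 0 to 1 in rostral-like cells, and for the stages 287 to 816 in inhibitory-like and 906 to 1576 in rostral-like cells. The difference in the share of E18.5 cells with Pax2 was 0.076 percentage points after thinning and -0.142 before it, and that of Pax5 0.541 and 1.025. The cause of these changes was not tested. Among the fits with the filter, the block changed no other genotype call of a Pax gene than those given. Few inhibitory-like and rostral-like cells at E18.5, and fewer than 50 Pax2 UMIs in each embryonic PN-like sum, limit those values.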
